A study of Mus musculus with 20 samples.

Results

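ih_CTC is a mouse cell line whose labels call it a malignantly transformed macrophage taken from a xenograft in the peritoneum. All genes of its 3 libraries were compared with those of 3 libraries labelled MDSC, a name for myeloid-derived cells that restrain immune responses. The study treats MDSC as the precursor. These 6 libraries were picked by their cell type labels alone, out of 20 in the series. Also used for comparison were 12 libraries of 4 other lines that the labels call malignantly transformed: C12 (macrophages, beside SU3 cells in culture), ih_DCTC (marrow dendritic cells, beside SU3), ih_STC_BM (mesenchymal stem cells regrown from a tumour after marrow damage and rebuilding) and ih_BCTC (oligodendrocytes regrown from an SU3 brain tumour). SU3 cells are of human glioma origin. All groups carry the strain label Nude Mouse, an athymic mouse, and a protocol of growth in DMEM with fetal bovine serum, whose text does not name ih_BCTC. The labels mention monoclonal culture for the malignant cells and MDSC alike, so a line may be 1 clone. They do not say that libraries of a group came from separate cultures or animals, so p-values here measure only the spread between libraries.

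Macrophages and MDSC are both leukocytes of the myeloid branch. Their identity rests on transcription factors such as PU.1, on the phosphatase CD45 at the surface, and on receptors for colony-stimulating factors that keep them alive. Mature myeloid cells carry microbicidal granules, an oxidase and chemokine receptors. Mesenchymal cells such as fibroblasts instead secrete and crosslink collagen, hold the matrix through focal adhesions, and read tension through YAP and its DNA-binding TEAD partners.

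Total expected counts were 9591636, 10583491 and 10170320 in the 3 ih_CTC libraries, against 9946833, 9117384 and 10397513 in the MDSC libraries. Levels below are CPM, the count as a share of the library's total scaled by TMM, an edgeR method that equalises the bulk of genes between libraries. Reads in introns made up 6.1% to 7.32% in ih_CTC and 9.64% to 10.36% in MDSC. ih_CTC 1 stood apart from ih_CTC 2 and 3 with 67.42% of reads mapped, against 77% and 74.93%, and with 6.3% of reads between genes, against 2.46% and 3.29%. The MDSC libraries differed from each other by 1.70 to 3.21 times the chi-square that counting alone gives, and the ih_CTC libraries by 44.5 to 49.9 times. The spread among MDSC libraries was therefore close to counting noise.

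Of 43432 genes, 15779 were tested. In ih_CTC 4446 genes rose (28.2%) and 4277 fell (27.1%), 55.3% in all, at an adjusted p under 0.05, by edgeR's quasi-likelihood test with Benjamini-Hochberg adjustment. The median log2 fold change over all genes tested was 0.08. In 41.0% of genes every ih_CTC library lay above every MDSC library, and in 39.4% every ih_CTC library lay below, so libraries did not overlap in 80.4% of genes. Of the calls, 3962 rises and 3899 falls passed 1 on the log2 scale, and 349 rises and 767 falls passed 8. The genes that rose held 40.4% of the CPM of tested genes in ih_CTC and 7.64% in MDSC, and the genes that fell held 10.3% in ih_CTC and 51.9% in MDSC. With the MDSC libraries summed to 1, an alternative chosen after the data were seen, 2551 genes rose and 3391 fell. Asking for a change beyond 1 on the log2 scale left 2852 rises.

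**Figure D1:**
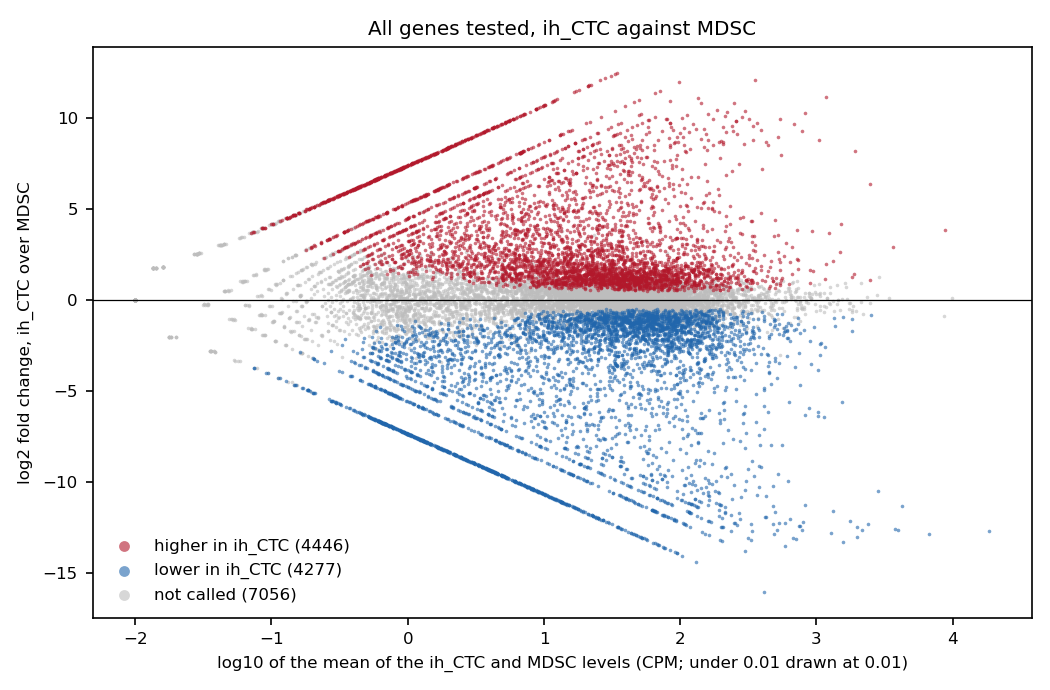
Each point is a gene tested, with the log10 of its mean level in CPM on the x axis and its log2 fold change, ih_CTC over MDSC, on the y axis. The 4446 genes higher in ih_CTC and the 4277 lower are coloured, the 7056 not called are grey, and the straight outer bands are genes with 0 counts in either group.

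Many genes had no counts in 1 group. In ih_CTC 311 genes had 0 counts in all 3 libraries while averaging at least 5 CPM in MDSC, and 199 of them were protein coding. In the other direction 105 genes had 0 counts in MDSC and at least 5 CPM in ih_CTC, of which 95 were protein coding. For such genes a fold is given as a lower bound against 3 counts summed over the group, which was 0.0874 CPM in ih_CTC and 0.112 CPM in MDSC. These floors, and the 95% intervals given where a group had 1 to 3 counts, cover counting error only.

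The largest rises were read among genes of at least 20 CPM in ih_CTC whose libraries did not overlap with those of MDSC. Fez1, an adaptor for axonal transport, had 67.6, 61.6 and 75.9 CPM in ih_CTC and 0 counts in MDSC, at least 610-fold higher. Igf2bp1, an RNA-binding protein of fetal tissues, had 59.2, 64.7 and 44.7 CPM in ih_CTC and 0 counts in MDSC, at least 501-fold higher. All 3 ih_CTC libraries were at a like level for both genes and no MDSC library had a count. Snai2, a transcription factor of mesenchymal cells, had 35.4, 35.3 and 84.9 CPM in ih_CTC and 0 counts in MDSC, at least 463-fold higher, with ih_CTC 3 above the other two libraries. Secreted factors with 0 counts in MDSC included Bdnf, a neurotrophin (at least 392-fold higher), and Wnt5a, which signals outside the beta-catenin route (at least 376-fold higher). Dclk1, a microtubule-binding kinase, Prkg2, a cGMP-dependent kinase, Mfap5, a microfibril protein, and Dzip1l also had 0 counts in MDSC. Steap1, a membrane metalloreductase, had 194, 177 and 221 CPM in ih_CTC and 1 count in MDSC. Prl2c2, a prolactin family member known as proliferin, had 899, 812 and 410 CPM in ih_CTC, against 0.11, 0.12 and 0.213 CPM in MDSC; it has near-identical copies, so its own share is uncertain.

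The largest falls were read by the same rule, with at least 20 CPM in MDSC. Fcnb, a ficolin made by immature granulocytes, had 0 counts in ih_CTC, against 136, 144 and 140 CPM in MDSC, at least 1605-fold lower. Il10ra, a subunit of the interleukin 10 receptor, had 0 counts in ih_CTC, against 183, 183 and 185 CPM in MDSC, at least 2102-fold lower. Both genes were level across the MDSC libraries. Treml2, a receptor of myeloid and B cells, Cyp4f18, a leukotriene-degrading enzyme of neutrophils, Gmfg, an actin regulator of leukocytes, Il9r and Fcrl1, a B cell receptor, had 0 counts in ih_CTC and 128.9 to 191 CPM in MDSC. The erythroid gene Slc4a1, the band 3 anion exchanger, had 3 counts in ih_CTC, against 31538 counts in MDSC.

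**Figure D2:**
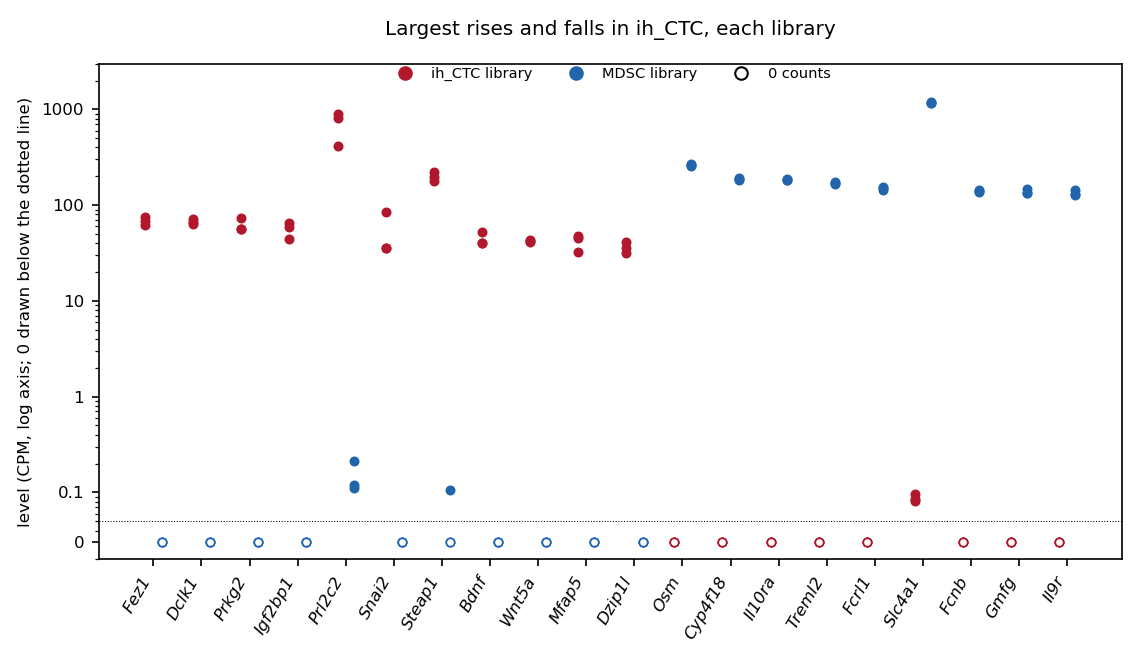
Level in CPM on a log axis of genes among those with the largest rise (left) and the largest fall (right), 1 point per library, ih_CTC left of MDSC for each gene, open points for 0 counts. In each gene the 3 libraries of the higher group sit far above every library of the other group, and most of the lower points are at 0.

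Promoters from RefSeq (mouse build GRCm38.p6, 250 bases before to 50 after the start) were matched by symbol for 10944 of the genes tested, which have 13955 promoters. The letters AGGAAGT, a core bound by PU.1 and other ETS factors, stood on either strand in 26.4% of 554 promoters of genes that fell by over 8 on the log2 scale, in 5.67% of 282 promoters of genes that rose by over 8, and in 9.26% of all promoters. The 554 promoters belong to 458 genes and the 282 to 221 genes, so a gene with more than 1 promoter counts more than once. The RUNX letters TGTGGT stood in 25.3% of the first set, 13.1% of the second and 13.1% of all. The TEAD letters GGAATG stood in 12.1% of the promoters of the falling genes, 20.9% of those of the rising genes and 12.3% of all. GC boxes (GGGCGG) stood in 29.96%, 54.96% and 59.8% of the same sets. The GC content of the sets beyond 8 was not computed, and motif shares were not adjusted for it. AP-1 letters (TGANTCA) stood in 7.94%, 6.38% and 5.62%, and CCAAT in 32.9%, 32.3% and 37.5%. The AGGAAGT letters lie within no other motif searched, and a match is a description of the sequence, not a binding site. Examples, chosen for their matches, follow for a receptor and an enzyme that fell, Ptprc (the gene of CD45) and Elane (neutrophil elastase), and for a pair of YAP and TEAD target genes that rose, Ankrd1 and Ccn1. Capitals mark the AGGAAGT letters or their reverse complement in the first pair and the GGAATG letters or their reverse complement in the second. The Ccn1 promoter also holds the AGGAAGT letters once, in lower case here, so the motifs do not divide these examples by direction. Ptprc lies at chr1:138175256-138175555 on the minus strand, Elane at chr10:79886062-79886361 on the plus strand, Ankrd1 at chr19:36119795-36120094 on the minus strand and Ccn1 at chr3:145649936-145650235 on the minus strand.
Ptprc: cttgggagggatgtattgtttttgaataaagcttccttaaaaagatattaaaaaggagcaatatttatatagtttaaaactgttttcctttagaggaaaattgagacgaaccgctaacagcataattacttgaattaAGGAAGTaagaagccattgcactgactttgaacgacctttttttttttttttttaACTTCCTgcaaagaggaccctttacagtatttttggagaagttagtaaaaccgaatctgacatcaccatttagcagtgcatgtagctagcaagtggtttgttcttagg
Elane: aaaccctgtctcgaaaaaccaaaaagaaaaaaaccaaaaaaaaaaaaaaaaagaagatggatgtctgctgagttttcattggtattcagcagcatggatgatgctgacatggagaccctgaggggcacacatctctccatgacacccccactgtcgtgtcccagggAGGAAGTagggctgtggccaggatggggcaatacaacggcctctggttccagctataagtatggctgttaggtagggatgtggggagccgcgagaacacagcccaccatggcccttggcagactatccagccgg
Ankrd1: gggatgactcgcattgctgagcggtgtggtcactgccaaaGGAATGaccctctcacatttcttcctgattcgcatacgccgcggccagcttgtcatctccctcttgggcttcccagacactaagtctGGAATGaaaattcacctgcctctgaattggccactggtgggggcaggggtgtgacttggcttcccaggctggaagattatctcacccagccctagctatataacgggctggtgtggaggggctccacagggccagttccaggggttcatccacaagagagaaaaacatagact
Ccn1: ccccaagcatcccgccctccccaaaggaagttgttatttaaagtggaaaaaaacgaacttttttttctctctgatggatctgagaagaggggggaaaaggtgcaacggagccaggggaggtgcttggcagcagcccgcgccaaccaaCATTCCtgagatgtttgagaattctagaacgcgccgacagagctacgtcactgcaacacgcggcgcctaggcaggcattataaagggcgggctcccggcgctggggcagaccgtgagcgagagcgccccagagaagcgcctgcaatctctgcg

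Genes were then read in 42 lists holding 841 symbols, 790 of them tested; counts below are of tested members at the same threshold, to be read against 28.2% of all genes higher and 27.1% lower. Members named beyond the largest changes were picked with their values known. Counts and medians are descriptions, and no list was tested as a set.

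The label of a macrophage was checked on its defining markers. All 20 macrophage markers fell, with a median log2 fold change of -6.59, and their summed level averaged 112 CPM in ih_CTC and 8086 CPM in MDSC. Csf1r, the receptor for CSF1 that macrophages need to survive, had 2.88, 1.80 and 3.25 CPM in ih_CTC, against 220, 224 and 219 CPM in MDSC (log2 fold change -6.38, SE 0.71, edgeR adjusted p = 7.87e-07). Adgre1, the F4/80 antigen, had 2 counts in ih_CTC and 877 in MDSC, and C1qa, a complement subunit of tissue macrophages, had 5 counts in ih_CTC and 534 in MDSC. Ptprc itself had 8 counts in ih_CTC and 41624 in MDSC. Cd14, a co-receptor for lipopolysaccharide, fell less, with 93.4, 92.3 and 100.7 CPM in ih_CTC, against 768, 756 and 781 CPM in MDSC. The data therefore went against the macrophage label at these markers, and the line is called ih_CTC here.

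Peritoneal macrophages are marked by the transcription factor Gata6. Of 12 peritoneal markers tested, 2 rose and 8 fell, with a median of -5.73. Gata6 had 14.4, 17.8 and 10.0 CPM in ih_CTC and 1 count in MDSC, a ratio of 378 with a 95% counting interval of 67.5 to 14961. Tgfb2 also rose, a call lost without ih_CTC 3 (edgeR adjusted p = 0.0639), while Icam2, Alox15 and F10 had 0 counts in ih_CTC. The fall was at least 171-fold for Icam2, an adhesion molecule, at least 231-fold for Alox15, a lipoxygenase, and at least 901-fold for F10, a clotting factor. Timd4, a phosphatidylserine receptor of resident peritoneal macrophages, had 1 count in ih_CTC and 38 in MDSC. Vsig4 and Serpinb2 did not pass the test.

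The transcription factors of blood cells fell almost as a group. Of 30 tested, 27 fell and none rose, with a median of -8.73, or -8.67 with members at 0 counts set at their bound. Spi1, which encodes PU.1, had 0.481, 0.0816 and 0.171 CPM in ih_CTC, against 225, 208 and 229 CPM in MDSC (log2 fold change -9.80, SE 0.62, edgeR adjusted p = 9.24e-10). Ikzf1, Ikzf3 and Cebpe, regulators of lymphoid and granulocytic maturation, had 3, 1 and 0 counts in ih_CTC, against 13501, 4774 and 1354 counts in MDSC. Tal1, a factor of erythroid and stem cells, had 0 counts in ih_CTC and was at least 1204-fold lower. Runx1, Gata3 and Batf3 were not called. Runx1, a founder factor of blood stem cells that other tissues also use, had 62.4, 71.1 and 73.5 CPM in ih_CTC, against 86.6, 78.8 and 86.2 CPM in MDSC (log2 fold change -0.28, SE 0.39, edgeR adjusted p = 0.568). In bulk samples, fewer cells of a type and less RNA per cell cannot be told apart.

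Leukocyte signalling genes fell in 22 of 22, with a median of -10.56. Rac2, the GTPase that drives the leukocyte oxidase and migration, had 0.288, 0.163 and 0.171 CPM in ih_CTC, against 850, 833 and 841 CPM in MDSC. Coro1a, an actin regulator of leukocytes, had 1.35, 0.816 and 1.46 CPM in ih_CTC, against 1228, 1218 and 1252 CPM in MDSC. Every ih_CTC library lay far below every MDSC library for both. Cytokine receptors of blood cells fell in 18 of 19, with a median of -7.72, or -6.70 with 7 members at their bound. Kit, the stem cell factor receptor, and Il21r had 0 counts in ih_CTC, a fall of at least 328-fold for Kit and at least 1078-fold for Il21r. Il3ra was not called. Chemokine receptors fell in 16 of 18, with a median of -8.54, or -6.56 with 6 members at their bound. Cxcr4, which holds cells in the marrow, had 9 counts in ih_CTC and 39615 in MDSC, and Ccr2, the receptor that calls monocytes out of marrow, had 1 count in ih_CTC and 3977 in MDSC. Ackr3, a scavenger of CXCL12, rose, with 161, 152 and 162 CPM in ih_CTC, against 31.1, 33.2 and 32.9 CPM in MDSC.

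Granulocyte genes were at or near 0 in ih_CTC. All 22 neutrophil genes fell, with a median of -12.27, or -11.82 with 2 members at their bound. S100a9, a subunit of calprotectin, had 1.44, 1.80 and 2.14 CPM in ih_CTC, against 12728, 13640 and 13671 CPM in MDSC (log2 fold change -12.85, SE 0.87, edgeR adjusted p = 1.73e-09). Ly6g, the surface antigen that defines mouse granulocytic MDSC, had 0 counts in ih_CTC and 2819 in MDSC, at least 1205-fold lower. Elane had 1 count in ih_CTC and 7687 in MDSC, and Ctsg, the granule protease cathepsin G, had 0 counts in ih_CTC and was at least 1486-fold lower. The oxidase and activating receptor list fell in 15 of 16, with a median of -9.89; Cybb, the catalytic subunit of the oxidase, had 12 counts in ih_CTC and 25476 in MDSC. Trem2, a lipid receptor of macrophages, was the exception, with 18.4, 17.7 and 19.6 CPM in ih_CTC, against 6.74, 5.89 and 6.07 CPM in MDSC (log2 fold change 1.57, SE 0.60, edgeR adjusted p = 0.0349). That call was lost when any 1 of the 6 libraries was left out (edgeR adjusted p = 0.058 to 0.09). Trem1, a receptor that amplifies neutrophil activation, had 4 counts in ih_CTC and 26086 in MDSC.

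Suppressor effector genes divided. Of 14 tested, 3 rose and 9 fell, with a median of -4.09. The rises were in nitric oxide and prostaglandin E2 synthesis. Nos2, the inducible nitric oxide synthase, had 129, 100 and 18.7 CPM in ih_CTC, against 1.66, 1.32 and 1.39 CPM in MDSC (log2 fold change 5.81, SE 1.29, edgeR adjusted p = 0.000971), with ih_CTC 3 well below the other two libraries. Ptgs2, the cyclooxygenase COX-2, had 909, 1014 and 962 CPM in ih_CTC, against 83.4, 79.6 and 86.1 CPM in MDSC (log2 fold change 3.53, SE 0.65, edgeR adjusted p = 0.000193). Ptges, the prostaglandin E synthase that acts after it, had 367, 344 and 202 CPM in ih_CTC, against 5.19, 6.13 and 5.43 CPM in MDSC. None of the 3 genes overlapped between groups, which was also so for 80.4% of all genes tested. Falls included Cd274, the checkpoint ligand PD-L1, with 2.02, 2.04 and 1.37 CPM in ih_CTC, against 263, 252 and 256 CPM in MDSC. Tgfb1, an immunosuppressive cytokine, had 30.2, 25.3 and 26.03 CPM in ih_CTC, against 170, 148 and 159 CPM in MDSC. Il10 and Arg2 also fell, and Il4ra and Nt5e were not called. Arg1, an arginase used as an MDSC marker, had 0 counts in ih_CTC and 4 in MDSC and was not tested.

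Sensing and antigen presentation were lower. Innate sensors and inflammasome genes fell in 16 of 21, with a median of -4.54. Tlr9, a receptor for bacterial DNA, had 0 counts in ih_CTC and was at least 620-fold lower. Tlr4, the lipopolysaccharide receptor, had 38.4, 43.7 and 49.2 CPM in ih_CTC, against 63.5, 65.8 and 64.0 CPM in MDSC, and did not pass the test (edgeR adjusted p = 0.37). Interferon response genes fell in 17 of 22, with a median of -2.82, and Ifit2 rose, a call lost on leaving out 5 of the 6 libraries in turn (edgeR adjusted p = 0.0517 to 0.0983). Irf7, a regulator of interferon genes, had 2.88, 3.67 and 1.88 CPM in ih_CTC, against 83.3, 80.3 and 85.1 CPM in MDSC. All 10 MHC class II genes fell, with a median of -10.44; H2-Aa had 5 counts in ih_CTC and 36160 in MDSC. MHC class I presentation genes fell in 12 of 15, with a smaller median of -2.26. B2m, the light chain of MHC class I, had 343, 305 and 397 CPM in ih_CTC, against 1749, 1856 and 1832 CPM in MDSC, so it was lower in each library but still abundant. H2 genes share reads with near copies, and their values are uncertain to that extent.

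The MDSC libraries also held transcripts of other blood lineages. The 13 B and plasma cell markers, of which 12 were tested, summed to a mean of 17.2 CPM in ih_CTC and 46387 CPM in MDSC. Ighm, the IgM heavy chain, took 3.71% of the TMM-scaled total in MDSC. The 11 erythroid markers summed to 3.57 CPM in ih_CTC and 17886 CPM in MDSC, and the 13 T and NK cell markers to 0.520 CPM in ih_CTC and 184 CPM in MDSC. All 36 markers tested in these lists fell in ih_CTC. For scale, the 22 neutrophil genes summed to a mean of 50345 CPM in MDSC. By these markers the MDSC libraries did not hold myeloid transcripts alone, and MDSC is used here as a label. In ih_CTC 7 of the 13 T and NK markers, among them Cd3e and Gzma, were at 0 counts. These values move with every leukocyte result above, and their part in those results was not tested. Globin and immunoglobulin genes have near copies that can share reads.

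**Figure D3:**
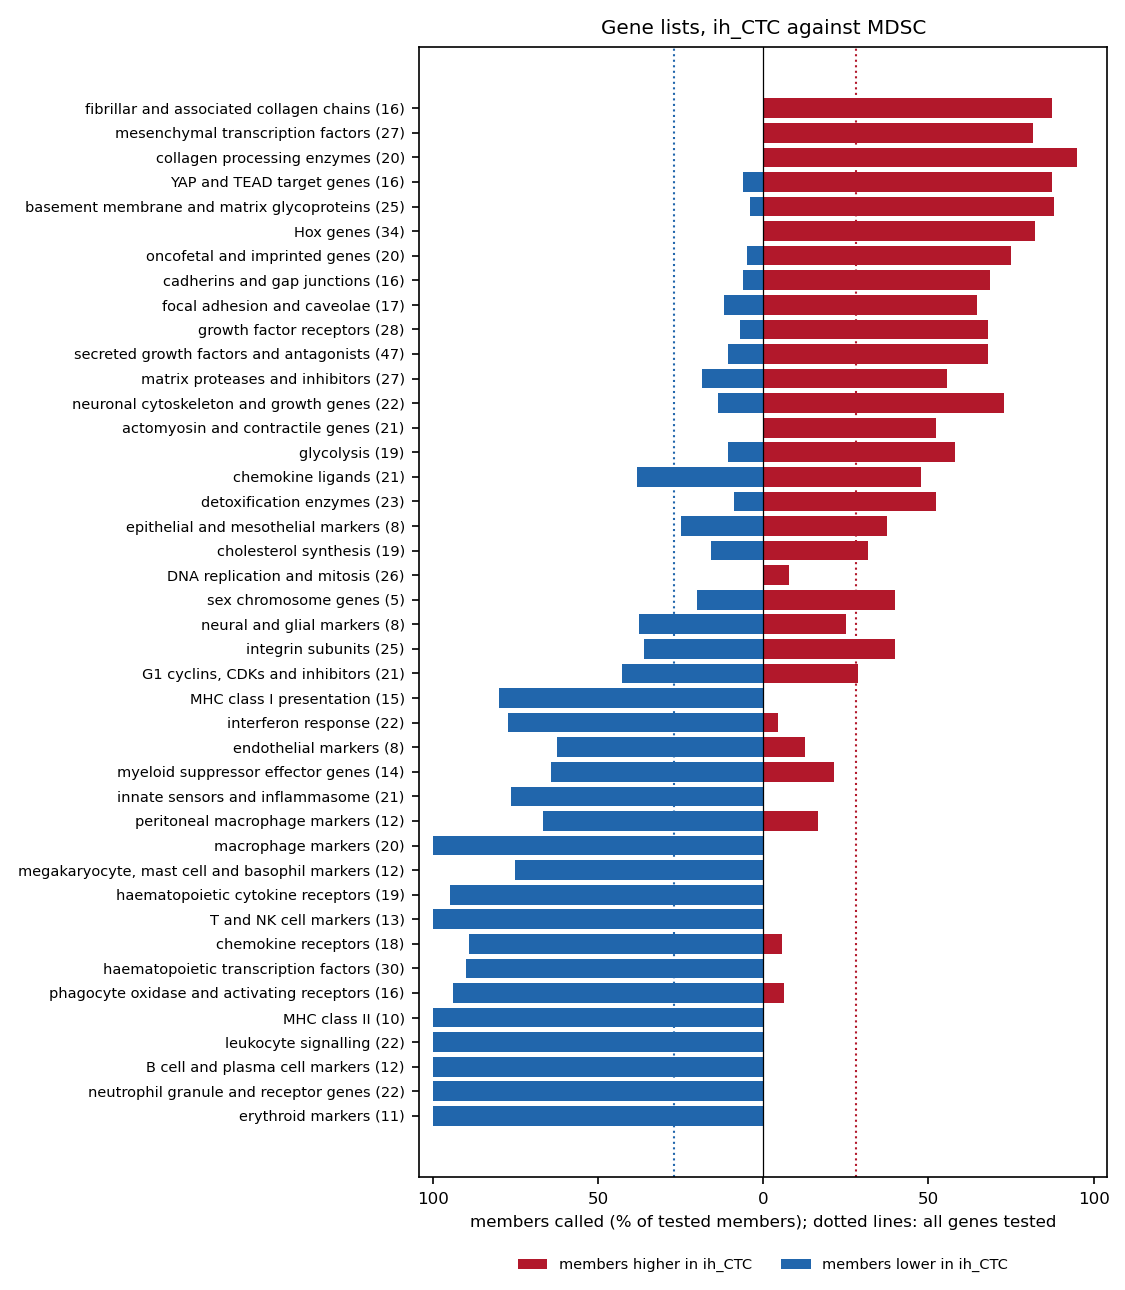
For each of 42 gene lists, the bar to the right is the percentage of tested members higher in ih_CTC than in MDSC and the bar to the left the percentage lower, with the number tested in brackets. Dotted lines mark the 28.2% and 27.1% of all genes tested, and lists run from the highest median log2 fold change (collagen chains) to the lowest (erythroid markers).

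Genes of the collagen matrix rose in ih_CTC. Of 16 fibrillar and associated collagen chains, 14 rose and none fell, with a median of 7.99. Col1a1, a chain of type I collagen, had 1624, 1635 and 1447 CPM in ih_CTC, against 2.43, 2.77 and 2.34 CPM in MDSC (log2 fold change 9.28, SE 0.67, edgeR adjusted p = 3.51e-09). Col3a1, the chain of type III collagen, had 1020, 1143 and 1081 CPM in ih_CTC, against 1.21, 1.08 and 0.959 CPM in MDSC. Levels were even among the ih_CTC libraries for both. Enzymes that fold and crosslink collagen rose in 19 of 20, with a median of 6.38. Lox, which oxidises lysines to crosslink collagen, had 1782, 1971 and 1203 CPM in ih_CTC, against 1.44, 0.842 and 1.70 CPM in MDSC (log2 fold change 10.26, SE 1.06, edgeR adjusted p = 2.99e-07). Serpinh1, the collagen chaperone HSP47, had 776, 730 and 855 CPM in ih_CTC, against 0.994, 1.44 and 1.28 CPM in MDSC. Loxl1, a relative of Lox, had 245, 258 and 274 CPM in ih_CTC, against 0.11, 0.601 and 0.426 CPM in MDSC. The lysyl hydroxylase Plod3 was not called.

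Basement membrane and matrix glycoproteins rose in 22 of 25, with a median of 6.13, or 5.07 with 2 members at their bound. Fn1, fibronectin, had 5350, 6414 and 7380 CPM in ih_CTC, against 886, 884 and 846 CPM in MDSC (log2 fold change 2.87, SE 0.49, edgeR adjusted p = 9.52e-05). Spp1, osteopontin, had 4492, 4258 and 5924 CPM in ih_CTC, against 60.5, 58.4 and 57.2 CPM in MDSC. Both were among the 8 genes with the largest share of ih_CTC counts. Dcn, the proteoglycan decorin, had 693, 673 and 673 CPM in ih_CTC, against 0.331, 1.56 and 0.852 CPM in MDSC. Postn, periostin, fell, a call lost without ih_CTC 1 or ih_CTC 2 (edgeR adjusted p = 0.0732 and 0.0782), and Thbs1 and Lum were not called. Thbs1, a thrombospondin, had 231, 291 and 157 CPM in ih_CTC, against 721, 725 and 690 CPM in MDSC (log2 fold change -1.65, edgeR adjusted p = 0.0759), and passed the test with DESeq2 (adjusted p = 0.0251). Thbs2, its relative, had 1354, 1532 and 1196 CPM in ih_CTC, against 2.32, 1.08 and 1.60 CPM in MDSC. Matrix proteases and inhibitors rose in 15 of 27 and fell in 5, with a median of 3.13. Mmp2, a gelatinase of stromal cells, had 659, 667 and 870 CPM in ih_CTC, against 0.442, 1.32 and 0.852 CPM in MDSC, while Mmp9, a gelatinase of neutrophils, had 4.42, 3.18 and 12.3 CPM in ih_CTC, against 732, 680 and 719 CPM in MDSC.

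Integrin subunits moved in both directions. Of 25 integrin subunits, 10 rose and 9 fell, with a median of -0.28. Itgb1, the beta subunit shared by most matrix receptors, had 523, 527 and 529 CPM in ih_CTC, against 173, 185 and 167 CPM in MDSC. Itgb2, the beta subunit of leukocyte integrins, had 24.0, 26.4 and 30.6 CPM in ih_CTC, against 794, 786 and 804 CPM in MDSC (log2 fold change -4.88, SE 0.47, edgeR adjusted p = 1.32e-07). Its partner Itgad had 0 counts in ih_CTC and was at least 385-fold lower, and Itgam had 7 counts in ih_CTC and 22761 in MDSC. Focal adhesion and caveolar genes rose in 11 of 17 and fell in 2, with a median of 4.08, or 3.98 with 1 member at its bound. Cav1, the caveolar coat protein, had 428, 420 and 441 CPM in ih_CTC, against 0.883, 0.361 and 0.852 CPM in MDSC. Cadherins and gap junction genes rose in 11 of 16, with a median of 4.70, or 3.24 with 3 members at their bound. Cdh2, N-cadherin, had 108, 116 and 90.2 CPM in ih_CTC, against 0.221, 0.24 and 0.213 CPM in MDSC, and Cdh1, E-cadherin, was not called, though it was lower with DESeq2 (adjusted p = 0.0345).

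Contractile genes rose in part. Of 21 tested, 11 rose and none fell, with a median of 1.83. Flnc, the filamin of muscle, had 327, 365 and 342 CPM in ih_CTC, against 0.221, 0.361 and 0.426 CPM in MDSC. Cald1, the actin-binding caldesmon, had 649, 706 and 710 CPM in ih_CTC, against 1.66, 1.44 and 1.49 CPM in MDSC. The smooth muscle markers Acta2, Tagln and Myl9 were not called; Acta2 had 21.3, 20.98 and 11.9 CPM in ih_CTC, against 7.84, 8.42 and 9.48 CPM in MDSC. YAP and TEAD target genes rose in 14 of 16, with a median of 6.33. Ankrd1, the nuclear ankyrin repeat protein whose promoter is printed above, had 250, 248 and 305 CPM in ih_CTC and 3 counts in MDSC, a ratio of 2391 with a 95% counting interval of 818 to 11596. Ccn1, a secreted matricellular protein, had 328, 279 and 347 CPM in ih_CTC, against 0.663, 0.842 and 0.639 CPM in MDSC. Yap1 itself had 166, 175 and 166 CPM in ih_CTC, against 0.773, 0.361 and 0.32 CPM in MDSC (log2 fold change 8.41, SE 0.42, edgeR adjusted p = 9.72e-11). Tead4 had 14.1, 15.8 and 13.4 CPM in ih_CTC and 0 counts in MDSC, at least 129-fold higher. Nuak2 fell and Lats2 was not called, though it was lower with DESeq2 (adjusted p = 0.0331).

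Transcription factors of mesenchymal cells rose in 22 of 27 and none fell, with a median of 7.53, or 6.74 with 7 members at their bound. Prrx1, a homeobox factor of limb and fibroblast mesenchyme, had 530, 592 and 572 CPM in ih_CTC, against 0.663, 0.361 and 0.533 CPM in MDSC (log2 fold change 10.05, SE 0.53, edgeR adjusted p = 1.38e-10). Twist1 had 48.3, 49.8 and 53.1 CPM in ih_CTC, against 0.221, 0.361 and 0.213 CPM in MDSC. Zeb1, which leukocytes also express, was not called, with 74.4, 84.2 and 66.0 CPM in ih_CTC, against 47.4, 46.8 and 46.8 CPM in MDSC. Hox genes, which encode position along the body axis, rose in 28 of 34 and none fell, with a median of 6.04, or 5.55 with 10 members at their bound. Hoxd8 had 22.7, 20.9 and 16.7 CPM in ih_CTC and 0 counts in MDSC, at least 179-fold higher. Hoxb13 had 10.4, 7.75 and 8.82 CPM in ih_CTC and 0 counts in MDSC, at least 80.1-fold higher.

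Markers of other solid tissue cells were mixed. Of 8 epithelial and mesothelial markers, 3 rose and 2 fell. Msln, mesothelin, which lines the peritoneum and many tumours, had 158, 156 and 123 CPM in ih_CTC, against 0.221, 0.12 and 0.32 CPM in MDSC, and Wt1 and Krt19 also rose. Epcam had 1 count in ih_CTC and 303 in MDSC. Of 8 endothelial markers 1 rose and 5 fell, Tie1 and Erg with 0 counts in ih_CTC, and of 8 neural and glial markers 2 rose, Nes and Tubb3, and 3 fell. Neuronal cytoskeleton and growth genes rose in 16 of 22 and fell in 3, with a median of 2.76. Dpysl3, which shapes growth cones, had 317, 343 and 304 CPM in ih_CTC, against 0.221, 0.24 and 0.32 CPM in MDSC.

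The chemokines that ih_CTC made differed from those of MDSC. Of 21 chemokine ligands tested, 10 rose and 8 fell, with a median of 1.56, or 0.86 with 5 members at their bound. Cxcl5, an attractant of neutrophils, had 2542, 2413 and 2037 CPM in ih_CTC, against 0.552, 1.32 and 1.17 CPM in MDSC (log2 fold change 11.15, SE 1.13, edgeR adjusted p = 2.25e-07). Ccl2, an attractant of monocytes, had 946, 860 and 1027 CPM in ih_CTC, against 45.3, 44.2 and 45.6 CPM in MDSC. Ccl7 and Cxcl1 rose as well, by 7.79 and 4.51 on the log2 scale. Going the other way, Cxcl2, also a neutrophil attractant, had 1.83, 1.55 and 0.942 CPM in ih_CTC, against 662, 668 and 684 CPM in MDSC. Ccl3 had 1 count in ih_CTC and 4362 in MDSC, and Ccl6 had 3 counts in ih_CTC and 5455 in MDSC.

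Secreted growth factors and antagonists rose in 32 of 47 and fell in 5, with a median of 3.52, or 3.18 with 6 members at their bound. Both ligands of the CSF1 receptor were among those that rose. Csf1 had 557, 583 and 690 CPM in ih_CTC, against 68.4, 68.4 and 65.3 CPM in MDSC (log2 fold change 3.18, SE 0.37, edgeR adjusted p = 1.16e-06). Il34 had 20.1, 19.3 and 21.1 CPM in ih_CTC and 0 counts in MDSC, at least 180-fold higher. Lif, a cytokine of the interleukin 6 family, had 302, 333 and 378 CPM in ih_CTC, against 9.39, 7.33 and 7.46 CPM in MDSC. Il6 was not called, with 17.8, 17.1 and 29.3 CPM in ih_CTC, against 13.9, 15.1 and 17.6 CPM in MDSC. Grem1, a BMP antagonist, had 396, 434 and 970 CPM in ih_CTC, against 0.663, 0.481 and 0.213 CPM in MDSC, with ih_CTC 3 highest. Osm, a relative of Lif, fell.

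Growth factor receptors rose in 19 of 28 and fell in 2, with a median of 3.91, or 3.73 with 2 members at their bound. Pdgfra had 176, 206 and 191 CPM in ih_CTC, against 0.773, 0.481 and 0.107 CPM in MDSC, and Pdgfrb had 122, 129 and 122 CPM in ih_CTC, against 1.88, 2.89 and 1.07 CPM in MDSC. Both are receptors for platelet-derived growth factors and mark fibroblasts and pericytes. Ddr2, a receptor for fibrillar collagen, had 222, 267 and 368 CPM in ih_CTC, against 0.11, 0.24 and 0.107 CPM in MDSC. Il1rl1, the receptor of interleukin 33, which was not in these lists, was 1 of the 8 genes with the largest share of ih_CTC counts. Il1rl1 had 3170, 3371 and 4925 CPM in ih_CTC, against 14.1, 13.0 and 13.0 CPM in MDSC (log2 fold change 8.16, SE 0.78, edgeR adjusted p = 1.16e-07).

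Oncofetal and imprinted genes rose in 15 of 20, with a median of 5.39, or 5.00 with 3 members at their bound. Hmga2, a chromatin protein of embryonic cells and tumours, had 344, 385 and 415 CPM in ih_CTC, against 0.552, 1.56 and 0.746 CPM in MDSC (log2 fold change 8.64, SE 0.67, edgeR adjusted p = 8.05e-09). Lin28a, a regulator of let-7 microRNAs, had 0 counts in ih_CTC and 213 in MDSC, at least 91.4-fold lower, and Lin28b, its relative, rose, with 27 counts in ih_CTC and 0 in MDSC.

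Few cell division genes passed the test. Of 26 replication and mitosis genes, 2 rose and none fell, with a median of 0.23. Cdk1, the mitotic kinase, had 152, 137 and 90.9 CPM in ih_CTC, against 49.8, 50.4 and 49.2 CPM in MDSC (log2 fold change 1.35, SE 0.46, edgeR adjusted p = 0.0202), and Kif20a, a mitotic kinesin, also rose. Both calls were lost without ih_CTC 1 or any 1 MDSC library, and that of Kif20a also without ih_CTC 2, with edgeR adjusted p of 0.0537 to 0.0649 for Cdk1 and 0.0617 to 0.0729 for Kif20a. Mki67, a label of cycling cells, had 328, 348 and 189 CPM in ih_CTC, against 832, 860 and 834 CPM in MDSC, and did not pass the test (edgeR adjusted p = 0.1), though it did with DESeq2 (adjusted p = 0.0366). Upstream of division, 6 of 21 G1 cyclins, kinases and inhibitors rose and 9 fell, with a median of -0.78. Ccnd1, a D cyclin, had 515, 522 and 392 CPM in ih_CTC, against 3.42, 3.25 and 3.94 CPM in MDSC (log2 fold change 7.07, SE 0.54, edgeR adjusted p = 7.74e-09). Ccnd3, another D cyclin, had 141, 125 and 69.1 CPM in ih_CTC, against 308, 284 and 295 CPM in MDSC. Rb1, the retinoblastoma gene that they act on, had 12.02, 11.998 and 13.2 CPM in ih_CTC, against 114, 114 and 108 CPM in MDSC. The inhibitor Cdkn2a had 0 counts in ih_CTC and 6 in MDSC, at least 2.64-fold lower, a call lost on leaving out 5 of the 6 libraries in turn.

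Most glycolysis genes rose. Of 19 glycolysis genes, 11 rose and 2 fell, with a median of 1.60. Ldha, lactate dehydrogenase A, had 2583, 2428 and 1482 CPM in ih_CTC, against 478, 480 and 501 CPM in MDSC (log2 fold change 2.15, SE 0.63, edgeR adjusted p = 0.00763). With the intron share as a covariate its log2 fold change was 0.70 and the call was lost (edgeR adjusted p = 0.121). The falls were Hk3, a hexokinase of leukocytes, with 3 counts in ih_CTC and 6971 in MDSC, and the glucose transporter Slc2a3, with 5.10, 4.90 and 8.56 CPM in ih_CTC, against 417, 421 and 411 CPM in MDSC. Hk2 and Slc2a1 were not called. Of 19 cholesterol synthesis genes 6 rose and 3 fell, with a median of 0.59; Sqle, squalene epoxidase, rose by 2.26 and Insig1, a brake on the pathway, fell by 1.81 on the log2 scale. Of 23 detoxification enzymes 12 rose and 2 fell, with a median of 1.202. Akr1b8, an aldo-keto reductase, had 82.8, 72.6 and 70.5 CPM in ih_CTC, against 0.442, 0.24 and 0 CPM in MDSC.

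To see which of these values set ih_CTC apart from the other transformed lines, it was tested against the unweighted mean of C12, ih_DCTC, ih_STC_BM and ih_BCTC in the same fit. In ih_CTC 1031 genes were higher (6.53%) and 854 lower (5.41%). All 3 ih_CTC libraries lay above all 12 others in 3.06% of genes and below all 12 in 2.91%, together 5.97%. Without 1 ih_CTC library, 465 to 567 genes were higher and 224 to 364 lower. The distance between libraries, as the root of the mean squared log2 CPM difference per gene, was 0.474 to 0.645 among ih_CTC libraries, from 0.998 to 1.69 between ih_CTC and a library of another line, and 2.89 to 2.91 between ih_CTC and MDSC. The comparisons with MDSC and with the other lines share the ih_CTC libraries, so their values are set side by side only.

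Among the genes higher in ih_CTC than in all 12 other line libraries, Thy1, a surface marker of mesenchymal stem cells and fibroblasts, had 41.2, 42.6 and 67.6 CPM in ih_CTC, against 0.0751 to 4.90 CPM in the others (log2 fold change 6.55, SE 0.46, edgeR adjusted p = 1.32e-07). In MDSC it averaged 12.1 CPM. Cdh11, a cadherin of osteoblasts and fibroblasts, had 36.2, 40.6 and 38.1 CPM in ih_CTC, against 0 to 22.2 CPM in the others (log2 fold change 5.93, SE 0.74, edgeR adjusted p = 5.26e-05). Cck, the hormone cholecystokinin, had 154, 149 and 120 CPM in ih_CTC, against 0 to 91.6 CPM in the others. Ms4a4d and the heparan sulfate enzyme Hs6st2 were also among the largest rises, by 7.401 and 6.48 on the log2 scale. Among genes of at least 20 CPM in the other lines and with no overlap of libraries, the largest falls were in Pgm5, Rcan2, the water channel Aqp5, the mitochondrial carrier Ucp2, the myelin protein Pmp22 and the chaperone Clu. Aqp5 had 6.06, 5.39 and 11.99 CPM in ih_CTC, against 30.02 to 615 CPM in the others (log2 fold change -4.09, SE 0.60, edgeR adjusted p = 0.00028).

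By list, the share of members that differed between ih_CTC and the other lines varied. Counts are to be read against 6.53% of all genes higher and 5.41% lower, and not all lists are given. Of 16 collagen chains 2 were higher and 1 lower, of 16 YAP and TEAD target genes 1 and 1, and of 17 focal adhesion and caveolar genes 0 and 0. Of 27 matrix proteases and inhibitors 7 were higher and 3 lower, and of 27 mesenchymal transcription factors 6 and 4. Of 22 leukocyte signalling genes 2 were higher and 8 lower, with a median of -1.35. Some members were near 0 in all these lines, such as Ptprc, not called, with means of 0.236 CPM in ih_CTC and 0.421 CPM in the others. Of 20 macrophage markers 2 were higher and 2 lower, little above those shares, with a median of 0.03. Cd14 had a log2 fold change of 1.52 and Cd68, a lysosomal protein, of -2.58; the first call was lost without any 1 ih_CTC library and the second without ih_CTC 2. Of 15 MHC class I genes none was higher and 4 were lower, H2-K1, H2-D1 and B2m among them, and these 3 calls were lost without any 1 ih_CTC library (edgeR adjusted p = 0.0691 to 0.222). Of 20 oncofetal and imprinted genes 6 were higher and none lower. Ndn, an imprinted gene, had 16.1, 17.5 and 10.6 CPM in ih_CTC, against means of 0, 1.196, 0 and 0.295 CPM in C12, ih_DCTC, ih_STC_BM and ih_BCTC (log2 fold change 7.41, SE 0.59, edgeR adjusted p = 6.09e-06). Meg3 and Rian, noncoding RNAs of 1 imprinted cluster, and Igf2 and Snrpn were also higher. Of 23 detoxification enzymes 1 was higher and 6 were lower, with a median of -0.50. The higher gene was Akr1c18, a steroid-converting reductase with close copies, which had 393, 365 and 171 CPM in ih_CTC, against means of 3.49, 46.9, 0.831 and 18.6 CPM in the 4 lines.

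In the Hox genes, 6 of 34 were higher in ih_CTC than in the mean of the other lines and 1 was lower. Over all genes 6.53% were higher and 5.41% lower. Hoxc8 had 9.52, 11.8 and 9.50 CPM in ih_CTC, against means of 0.45 CPM in C12, 9.50 CPM in ih_DCTC, 0 CPM in ih_STC_BM and 7.35 CPM in ih_BCTC (log2 fold change 3.70, SE 0.27, edgeR adjusted p = 3.17e-06). It was thus level with ih_DCTC and ih_BCTC, and the difference lay with C12 and ih_STC_BM. Hoxc9 and Hoxc10 were likewise low in C12 and ih_STC_BM, with means of 0 to 0.167 CPM. Hoxa11, a gene of the limb and kidney, had 1 count in ih_CTC, against means of 16.8, 22.96, 4.35 and 21.2 CPM in C12, ih_DCTC, ih_STC_BM and ih_BCTC (log2 fold change -8.38, SE 0.66, edgeR adjusted p = 2.28e-06). Neighbouring genes of its cluster were present, Hoxa10 with 7.12, 5.88 and 7.79 CPM in ih_CTC.

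**Figure D4:**
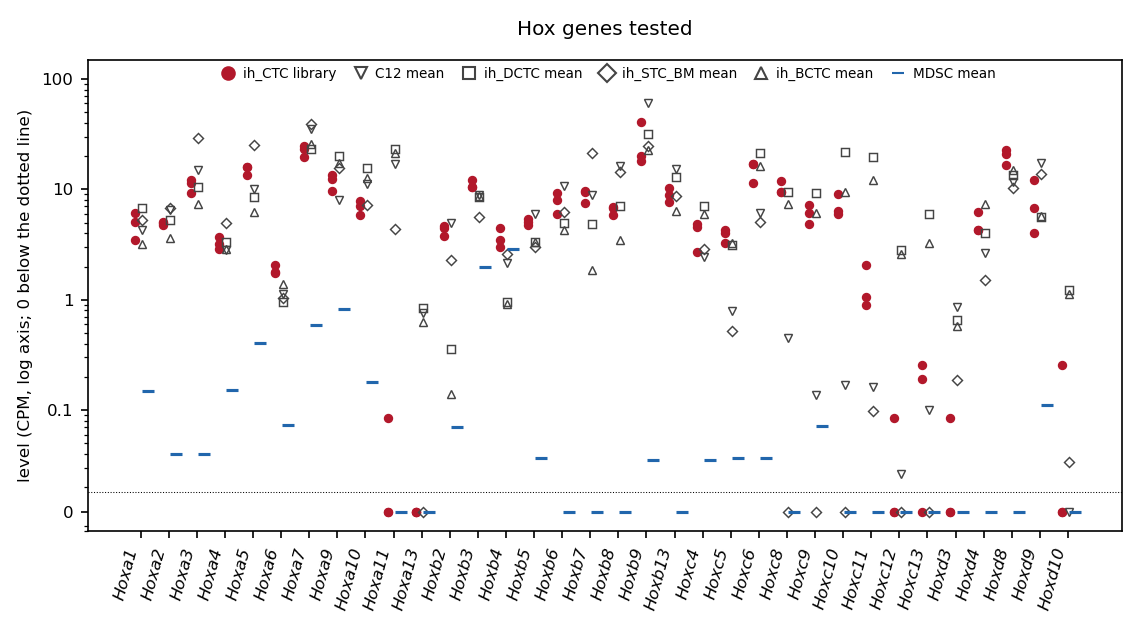
Level in CPM on a log axis of each Hox gene tested, with filled circles for the 3 ih_CTC libraries, open symbols for the means of the 4 other lines and a bar for the MDSC mean; 0 is drawn below the dotted line. Hoxa11 is at 0 or near it in ih_CTC and between 4.35 and 22.96 CPM in the other lines, while Hoxc8 is at 7.35 to 11.8 CPM in ih_CTC, ih_DCTC and ih_BCTC.

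Genes that set ih_CTC apart were uneven along the genome. On chromosome 18, 133 of 392 genes tested (33.9%) were higher than in the other lines and 3 lower, with a median log2 fold change of 0.73, against 6.53% higher over all genes. Against MDSC, 158 of the 392 were higher (40.3%) with a median of 0.59, where all genes had 28.2% higher and a median of 0.08. That excess was not particular to chromosome 18, since chromosome 15 had 37.5% higher against MDSC and a median of 0.51. For 243 genes of chromosome 18 with at least 5 CPM on average, the median deviation from the mean of the 5 lines was 0.68, 0.67 and 0.51 on the log2 scale in the ih_CTC libraries, and lay between -0.96 and 0.21 in the 12 other libraries, so the groups did not overlap. On chromosome X, 86 of 520 genes (16.5%) were higher than in the other lines, and the deviation was 0.27 to 0.29 in ih_CTC and reached 0.40 in 1 library of ih_STC_BM.

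**Figure D5:**
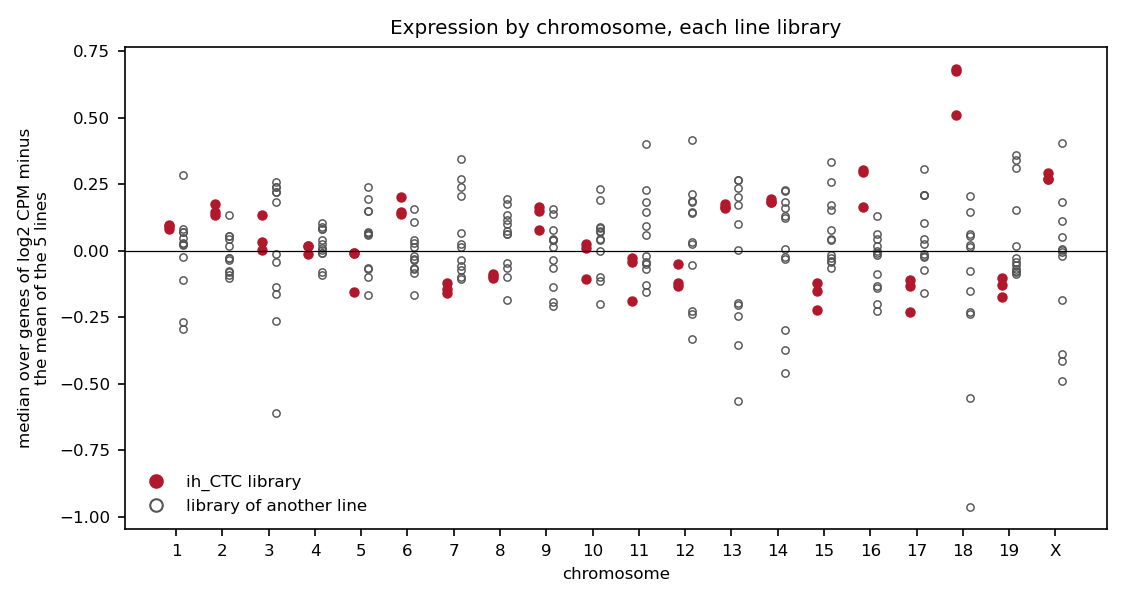
Median over the genes of each chromosome of log2 CPM minus the mean of the 5 lines, 1 point per library, with ih_CTC filled and left of the 12 other line libraries. On chromosome 18 the ih_CTC libraries sit at 0.51 to 0.68, above all other libraries.

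Sex chromosome genes separated the line from MDSC. Xist, the RNA that silences an X chromosome in female cells, had 0.962, 0.653 and 0.171 CPM in ih_CTC, against 615, 621 and 580 CPM in MDSC. The Y-linked genes Kdm5d and Uty had 7.02, 11.9 and 12.8 CPM and 8.17, 6.37 and 7.28 CPM in ih_CTC, against 0 counts of both in MDSC. Ddx3y and Eif2s3y, also on the Y, had 0 counts in both groups. Y-linked transcripts were thus present in ih_CTC and absent from MDSC, so the groups differed in the sex of their source as well as in cell state. Source and cell state cannot be told apart here, at genes of these chromosomes or at any others.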

How the data were processed

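Bulk RNA of 20 libraries was sequenced with TruSeq libraries, per the labels' protocols. The authors deposited expected counts per gene; STAR, RSEM 1.2.26 and DESeq2 are named in the submitters' processing notes, with no genome build. The deposited percentages of mapped, intron and intergenic reads per library were used as they stand. Of all expected counts 8.37% were not whole, and they were rounded before testing.

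Genes with at least 10 counts in enough libraries (filterByExpr, total of at least 15) were tested with edgeR 4.0.16 (R 4.3.3): TMM scaling, robust quasi-likelihood, all 20 libraries in 1 fit with 13 residual degrees of freedom, and Benjamini-Hochberg adjustment. Library totals ran from 8794768 to 12400624. Alternatives tried were DESeq2 1.42.0, limma-voom 3.58.1, RLE scaling, upper quartile scaling, all genes unfiltered, a threshold of 1 on the log2 scale, an intron covariate, only the groups compared, and leaving out libraries. Tested on simulated data for ih_CTC against MDSC, the fit called 60 of 66 genes set to a 16-fold change. It called 35 of 67 at 4-fold and 2 of 67 at 2-fold, and 2 of 14774 genes left unchanged. The simulation left most genes level in all groups and gave each gene the same spread in all groups. In the data 55.3% of genes were called and the spread differed between ih_CTC and MDSC, so these rates may not hold there. Promoters were read from RefSeq.

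Named genes were the 12 largest rises and falls of at least 20 CPM without overlap of libraries, up to 3 called genes of at least 5 CPM per list, the 8 genes with the largest share of counts, the 6 largest rises and falls against the other lines, and the 6 genes varying most within ih_CTC; further genes were chosen after their values were seen. The lists and comparisons were chosen with earlier results of these data known. A few genes that this rule picks are not reported here.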

Additional observations from a re-analysis of the deposited data

Results flagged for a closer look

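The difference between ih_CTC and the mean of the other 4 lines was tested in the same fit: 1031 genes were higher in ih_CTC and 854 lower. At these genes the size of the difference from MDSC was not the same. Direction was counted over all genes called against MDSC, not over these genes alone. Of the genes called against MDSC, 3717 that rose and 3727 that fell were not called against the other lines. Of the 4446 genes that rose in ih_CTC against MDSC, the mean of the other lines was also above MDSC in 4413. Of the 4277 that fell, it was also below MDSC in 4179. A single high line can set that mean, and the lines were not checked one by one. The same MDSC libraries served on both sides. Without 1 ih_CTC library, 465 to 567 genes were higher and 224 to 364 lower.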

How the results depend on the processing

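No named gene with a call changed direction under any alternative run. Against MDSC, 2852 genes rose when a change beyond 1 on the log2 scale was asked for, and 2551 with the MDSC libraries summed to 1, chosen after the data were seen. RLE scaling gave 3972 rises and 4660 falls and upper quartile scaling 5012 and 3910, with the median of all genes shifted by -0.16 and 0.17. Leaving out a library gave 3775 to 4054 rises and 3768 to 3916 falls. Against the other lines, 282 genes were higher and 145 lower beyond 1 on the log2 scale, 623 and 455 with only the groups compared, and 465 to 567 and 224 to 364 without 1 ih_CTC library. DESeq2 called 1517 lower there. The cause was not tested, except that fewer libraries entered the last fits. Of the comparisons of single named genes with an alternative, 109 lost the call, 31 gained it and 3902 stayed on the same side of the threshold. With only ih_CTC and MDSC in the fit, which left 4 residual degrees of freedom, 5602 genes were higher and 5733 lower of 13960 tested. Most genes thus passed in that run, and a call gained there is not particular to a gene. Among genes not called against MDSC in the main fit, Runx1, Gata3, Tlr4, Il4ra, Nt5e, Cdh1, Lats2, Thbs1 and Mki67 were lower in that run. Il3ra, Plod3, Zeb1, Acta2, Hk2 and Slc2a1 were higher in it. Cdh1 and Lats2 were also lower with RLE scaling and DESeq2, Thbs1 and Mki67 with DESeq2, Il4ra with the intron covariate and Vsig4 with limma-voom; Plod3 was higher with upper quartile scaling, and Il6 and Zeb1 with the intron covariate. Of the counts of list members, 77 moved by over 1.5 times and 1183 did not. No paired analysis was possible because the labels carry no replicate numbers. At this depth, genes of a few counts gave only bounds or wide intervals.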

Other observations

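Some genes differed widely among the ih_CTC libraries. Yam1 had 39422, 242 and 9397 CPM in ih_CTC 1, 2 and 3, Lars2 had 5480, 50.3 and 1370 CPM, and Rn7sk had 146, 0.408 and 42.4 CPM, so ih_CTC 2 was lowest in each. The highest in each, ih_CTC 1, was also the ih_CTC library with the lowest share of reads mapped (67.42%). Whether these values are related was not tested. Trib3 had 11.3, 9.22 and 169 CPM, Chac1 had 21.6, 19.6 and 262 CPM, and Slc6a9 had 17.6, 19.4 and 129 CPM, with ih_CTC 3 highest. Trib3 and Chac1 are targets of the amino acid stress response.

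Among the other lines, ih_STC_BM also had Y-linked transcripts and low Xist. C12, ih_DCTC and ih_BCTC averaged 292, 311 and 422 CPM of Xist and had 0 counts of Kdm5d and Uty.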
